A study of Mus musculus with 10 samples.

Results

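Genes of red cell development and heme synthesis were followed in mouse bone marrow cells transduced with the leukemia fusion AML1/ETO or with its W692A form. The 33 genes were a named list covering erythroid transcription regulators, the erythropoietin receptor, the enzymes of heme synthesis, heme and iron handling, the red cell membrane, blood group proteins, carbonic anhydrases and a water channel. All 33 were measured, among 18193 genes in all. Where a gene had several probe sets, the brightest on average was read.

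Red cell precursors make heme in a chain of enzymes that begins and ends in the mitochondrion, with intermediate steps in the cytosol. Alas2 opens the chain in erythroid cells and Alas1 opens it in other cells. The transcription factors GATA1 and KLF1 switch on heme enzymes, globins and membrane proteins as the precursors mature.

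The compared groups were AML1/ETO with the W692A substitution (4 arrays), AML1/ETO (3 arrays) and the MigR1 vector expressing GFP alone (3 arrays). W692A changes 1 residue of the MYND domain, the region through which ETO binds the corepressors SMRT and N-CoR. All cells came from C57BL/6 mice 5 to 6 weeks old, were depleted of lineage-positive cells, enriched for Sca1 and infected with MigR1 retrovirus in medium with IL-3 at 10 ng/ml, IL-6 at 20 ng/ml and SCF at 10 ng/ml. Erythropoietin is not among the cytokines named in the labels. At 48 hours after the second infection, 25000 cells carrying Sca1, cKit and GFP and no lineage marker were sorted per sample, and 50 ng of RNA was amplified in more than one round. The retrovirus drives the fusion in every infected cell and not in a chosen lineage. The labels do not say whether the arrays of a group came from separate mice, so p-values measure the spread between these samples only. In such bulk samples fewer cells of a type and less RNA per cell cannot be told apart.

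All levels are RMA log2 intensities. A background bound was set at 2.04, the brightest value on any array of 27 control probe sets for bacterial genes that no mouse RNA should match. A fold against a group with arrays under that bound is given as a lower limit, with those values raised to the bound. Differences were tested with limma and called at a Benjamini-Hochberg adjusted p under 0.05 over all 18193 genes. Errors of differences are standard errors, and ranges in brackets after a difference are 95% confidence intervals.

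Of the 33 genes, 16 had a group mean above the bound. The other 17 did not, and their 170 values ran between 0.25 and 2.35, with 1 value above the bound (Icam4, AML1/ETO replicate 3). The measured markers of maturing red cells were also dim, but most of them belong to these 17 genes. Hba-a1, the alpha globin gene and the only one outside the 33, read 0.33 to 0.77 over the 10 arrays. Alas2, Slc4a1 and Epb42, already counted among the 17, were under the bound on every array. Hba-a1, Alas2, Slc4a1 and Epb42 were the 4 measured of 9 mature erythroid markers listed. Hba-a1 was read by 1 probe set. The 932 probe sets assigned to several gene symbols were left out, and globin signal on any of them was not examined. Of the markers behind the sort gate, Kit was under the bound on every array and Ly6a, which encodes Sca1, was not analysed here.

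**Figure D1:**
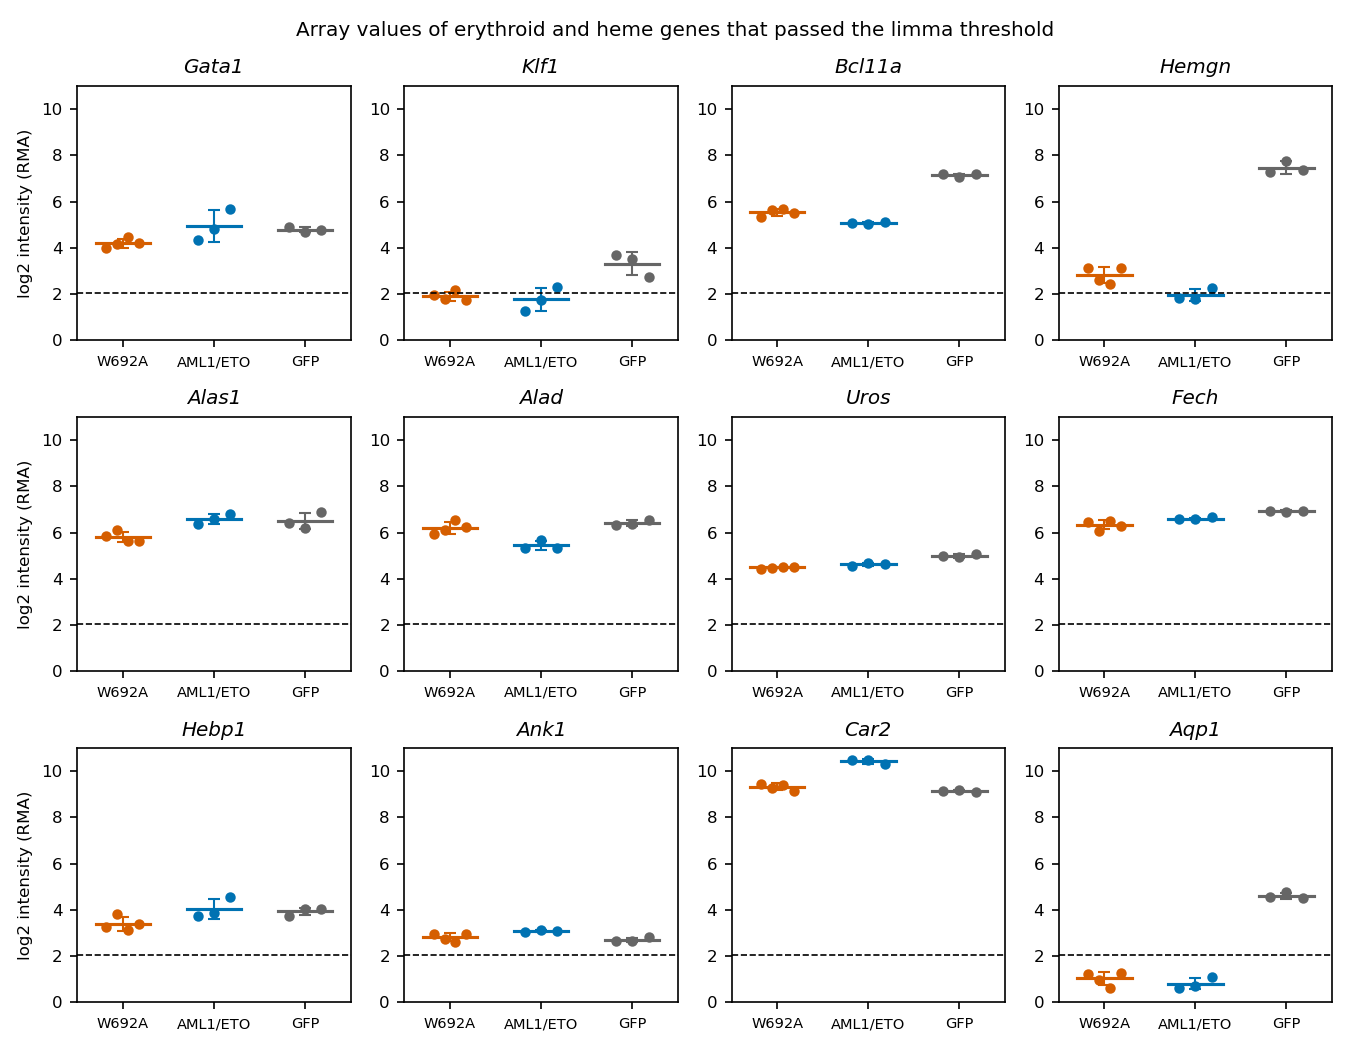
Log2 intensity (vertical axis) of 12 erythroid and heme genes on each array, with 1 point per array, W692A at the left, AML1/ETO in the middle and GFP at the right of each panel. Horizontal lines are group means, vertical bars are 1 SD (n = 4, 3 and 3 arrays), and the dashed line is the background bound of 2.04. Hemgn, Aqp1, Bcl11a and Klf1 were lower with both constructs than with GFP on all arrays. Car2 stood above the other groups on the AML1/ETO arrays and Alas1 stood below them on the W692A arrays.

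AML1/ETO changed 9 of the 33 genes relative to GFP (27.3%), beside 28.6% of all genes tested in that comparison. Ank1 and Car2 rose, 2 of 33, beside 12.9% of all genes. Klf1, Bcl11a, Hemgn, Alas2, Alad, Uros and Aqp1 fell, 7 of 33, beside 15.8% of all genes. The share of calls in the list was near that of all genes. W692A changed 8 of the 33 relative to GFP (24.2%), beside 14.5% of all genes, and all 8 fell: Klf1, Bcl11a, Hemgn, Alas1, Alas2, Uros, Fech and Aqp1. Of all genes, 9.07% fell and 5.45% rose in that comparison. Set directly against AML1/ETO, W692A changed 7 of the 33 (21.2%), beside 20.7% of all genes. Bcl11a, Hemgn and Alad rose, beside 9.61% of all genes, and Gata1, Alas1, Hebp1 and Car2 fell, beside 11.1% of all genes. This share too was near that of all genes. The median log2 difference of the 33 genes was -0.04 for AML1/ETO over GFP, -0.08 for W692A over GFP and -0.02 for W692A over AML1/ETO, against -0.02, 0.01 and 0.03 over all genes. Both medians take in the genes at background, 17 of the 33. The first 2 comparisons share the GFP arrays.

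RNA quality readings moved with the groups. The 3' probe set of the Gapdh control exceeded its 5' probe set by 3.81 to 4.17 on W692A arrays, 4.01 to 5.04 on AML1/ETO arrays and 4.83 to 4.99 on GFP arrays (log2). The 18S rRNA control signal was 8.56 to 8.996 on W692A arrays, 8.18 to 8.65 on AML1/ETO arrays and 7.74 to 8.13 on GFP arrays. With the Gapdh reading as a covariate, 3 of the 8 W692A calls against GFP held (Hemgn, Aqp1 and Bcl11a). Among the lost calls, the differences of Fech (-0.63, against -0.58 without the covariate) and Uros (-0.46, against -0.50) stayed about as large, and those of Klf1, Alas1 and Alas2 were smaller. Of the calls between AML1/ETO and GFP those of Alas2, Uros and Ank1 were lost with the covariate, and of those between W692A and AML1/ETO the calls of Gata1 and Hebp1. Within AML1/ETO, replicates 1, 2 and 3 had Gapdh readings of 4.08, 4.01 and 5.04. The W692A and GFP readings did not overlap, so the covariate and those groups cannot be told apart. Apart from AML1/ETO replicate 3, readings varied little within a group, so the covariate's slope rests largely on that array. Replicate 3 was the highest of its group for 17 of the 33 genes and the lowest for 5, replicate 2 the highest for 13 and the lowest for 6, and replicate 1 the highest for 3 and the lowest for 22. The part of these readings in the results was not tested further.

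Of the 6 transcription regulators, 3 fell and none rose with each construct against GFP, beside 15.8% of all genes that fell with AML1/ETO and 9.07% with W692A. Hemgn, the hemogen gene, which encodes a nuclear protein of blood-forming cells, gave 3.12, 2.61, 2.43 and 3.14 with W692A, 1.85, 1.80 and 2.27 with AML1/ETO and 7.27, 7.78 and 7.36 with GFP. The groups did not overlap in any pair, and the AML1/ETO arrays lay around the background bound. Hemgn was at least 40.8-fold lower with AML1/ETO than with GFP (log2 difference -5.50 ± 0.20, adjusted p = 6.79e-11, limma). It was 25.0-fold lower with W692A than with GFP (-4.64 ± 0.19, adjusted p = 6.87e-10). W692A arrays stood above AML1/ETO arrays by 0.85 ± 0.19 (adjusted p = 0.00421, at least 1.63-fold). That call was lost when values under the bound were raised to it before the fit (0.71, adjusted p = 0.0753).

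Bcl11a, a zinc finger repressor known for silencing embryonic and fetal globin genes and also needed in B cells, gave 5.35, 5.63, 5.68 and 5.51 with W692A, 5.09, 5.05 and 5.13 with AML1/ETO and 7.20, 7.09 and 7.18 with GFP. It was 4.18-fold lower with AML1/ETO than with GFP (-2.06 ± 0.12, adjusted p = 5.72e-09) and 3.06-fold lower with W692A than with GFP (-1.61 ± 0.11, adjusted p = 1.59e-07). All W692A arrays lay above all AML1/ETO arrays, by 0.45 ± 0.11 (adjusted p = 0.00838, 1.36-fold). The W692A call over AML1/ETO was lost with the mean of the gene's 7 probe sets (0.17, adjusted p = 0.179), most of them under the bound in every group. It was also lost, narrowly, with the spike-in controls as a covariate (adjusted p = 0.0506).

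Klf1, the erythroid Krüppel-like factor, gave 1.97, 1.79, 2.17 and 1.73 with W692A, 1.29, 1.73 and 2.30 with AML1/ETO and 3.67, 3.52 and 2.75 with GFP. Only 1 of 4 W692A arrays and 1 of 3 AML1/ETO arrays exceeded the bound, against 3 of 3 GFP arrays. The gene was at least 2.28-fold lower with AML1/ETO than with GFP (-1.54 ± 0.25, adjusted p = 0.000192). It was at least 2.36-fold lower with W692A than with GFP (-1.40 ± 0.23, adjusted p = 0.000794), a call that did not pass with the Gapdh covariate (-0.98, adjusted p = 0.264). The constructs differed by 0.14 for Klf1 (adjusted p = 0.767).

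Gata1, which is also needed in megakaryocytes, mast cells and eosinophils, gave 3.99, 4.18, 4.47 and 4.20 with W692A, 4.34, 4.80 and 5.68 with AML1/ETO and 4.90, 4.70 and 4.78 with GFP. The W692A arrays overlapped those of AML1/ETO and lay below all GFP arrays. Against AML1/ETO the gene was 1.66-fold lower with W692A (-0.73 ± 0.23, adjusted p = 0.0328), but without AML1/ETO replicate 3 the difference was -0.36 and did not pass (adjusted p = 0.166). Leaving out AML1/ETO replicate 2 or W692A replicate 1, 2 or 4 also ended the call, as did the Gapdh covariate (-0.41, adjusted p = 0.212). Against GFP neither construct passed: the difference was 0.15 (-0.37 to 0.67, adjusted p = 0.752) with AML1/ETO and -0.58 (-1.07 to -0.10, adjusted p = 0.111) with W692A. The W692A difference from GFP passed when AML1/ETO replicate 1 (adjusted p = 0.0443) or replicate 3 (adjusted p = 0.0130) was left out of the shared fit. It also passed in a fit of the W692A and GFP arrays alone (adjusted p = 0.00993). With the Gapdh covariate it turned to 0.22 (adjusted p = 0.880). AML1/ETO replicate 3, on which the covariate leans, had the highest Gata1 value. Nfia, a factor that favours the erythroid fate, and Trim10, a gene of late erythroid maturation, were under the bound in every group and did not pass in any comparison. The erythropoietin receptor gene Epor was likewise under the bound and did not pass.

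Promoter sequences of Hemgn, Aqp1, Klf1 and Bcl11a are shown because these were the genes above background that fell with both constructs by the widest margins. Each is the 250 bases before the annotated start, read 5′ to 3′ along the gene, from RefSeq on build GRCm38.p6. Capitals mark matches on either strand to AGATAA or TGATAA (the GATA motif), TGTGGT (the RUNX motif, which the AML1 portion of the fusion binds) or CCNCNCCC (a Krüppel-like factor motif), with N for any base; Krüppel-like matches can overlap each other.
Hemgn (chr4:46404184-46404433, minus strand): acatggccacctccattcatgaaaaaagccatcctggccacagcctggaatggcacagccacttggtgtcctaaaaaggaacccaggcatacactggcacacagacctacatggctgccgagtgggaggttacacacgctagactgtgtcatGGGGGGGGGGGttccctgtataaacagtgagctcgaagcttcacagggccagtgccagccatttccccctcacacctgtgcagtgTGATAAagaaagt
Aqp1 (chr6:55336049-55336298, plus strand): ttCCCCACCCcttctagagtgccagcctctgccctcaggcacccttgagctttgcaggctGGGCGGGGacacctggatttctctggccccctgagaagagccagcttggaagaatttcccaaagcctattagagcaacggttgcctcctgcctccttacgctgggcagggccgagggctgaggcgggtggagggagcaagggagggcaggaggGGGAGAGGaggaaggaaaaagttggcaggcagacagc
Klf1 (chr8:84901732-84901981, plus strand): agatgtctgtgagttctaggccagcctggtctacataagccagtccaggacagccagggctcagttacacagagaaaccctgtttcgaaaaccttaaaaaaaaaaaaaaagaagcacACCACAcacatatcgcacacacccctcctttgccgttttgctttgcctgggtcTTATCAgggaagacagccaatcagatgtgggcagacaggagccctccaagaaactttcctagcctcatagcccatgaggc
Bcl11a (chr11:24080445-24080694, plus strand): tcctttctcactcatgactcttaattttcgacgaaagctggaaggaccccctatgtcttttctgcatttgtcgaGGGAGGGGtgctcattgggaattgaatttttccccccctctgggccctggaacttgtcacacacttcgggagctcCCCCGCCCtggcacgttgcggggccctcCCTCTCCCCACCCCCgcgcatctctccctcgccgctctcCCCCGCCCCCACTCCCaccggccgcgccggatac
In Hemgn a GATA match lay between bases -13 and -8 from the start. Behind the start, the stretch from base 11 on (chr4:46404144-46404173, minus strand) held a RUNX match and a further GATA match in 30 bases.
Hemgn, after the start: cacagcTGTGGTctaaccAGATAAaacttt
In Klf1 the RUNX match (ACCACA as read on this strand) lay between -133 and -128 and the GATA match (TTATCA) between -80 and -75. The Aqp1 window had Krüppel-like matches before the start and a RUNX match after it, between bases 38 and 43. Bcl11a had Krüppel-like matches alone.

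RefSeq promoters matched 27 of the 33 genes. Ank1, Car1, Car2, Fech, Slc25a37 and Slc4a1 had no entry. Over the window of 250 bases before to 50 after a start, GATA matches were present in 14 of the 27 genes (51.9%), against 21.0% of 27025 genes with a promoter in the table. RUNX matches were present in 8 of 27 (29.6%), against 18.9% of all, and Krüppel-like matches in 20 of 27 (74.1%), against 51.9% of all. These matches describe letters and not bound sites.

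The 8 enzymes of heme synthesis did not move together. With AML1/ETO, 3 fell against GFP (Alas2, Alad and Uros), beside 15.8% of all genes, and with W692A 4 fell (Alas1, Alas2, Uros and Fech), beside 9.07% of all genes. Alas1, the aminolevulinate synthase of non-erythroid cells, gave 5.84, 6.11, 5.64 and 5.66 with W692A, 6.39, 6.58 and 6.82 with AML1/ETO and 6.40, 6.20 and 6.90 with GFP. All W692A arrays lay below all others. Alas1 was 1.73-fold lower with W692A than with AML1/ETO (-0.79 ± 0.17, adjusted p = 0.00355) and 1.61-fold lower than with GFP (-0.69 ± 0.17, adjusted p = 0.0126). The call against GFP was lost without GFP replicate 3 (-0.49, adjusted p = 0.0668) and with the Gapdh covariate (-0.35, adjusted p = 0.718). AML1/ETO differed from GFP by 0.10 (-0.29 to 0.49, adjusted p = 0.789). The erythroid synthase Alas2 read 0.87 to 1.20 with W692A, 0.83 to 1.29 with AML1/ETO and 1.42 to 1.85 with GFP. It passed against GFP with both constructs (adjusted p = 0.00925 with W692A and 0.0126 with AML1/ETO), but every value was under the bound, so no fold is given. Both calls were lost without GFP replicate 1 (adjusted p = 0.0609 with W692A and 0.0683 with AML1/ETO), and the AML1/ETO call also without AML1/ETO replicate 2 (adjusted p = 0.0773).

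Alad, the second enzyme of the chain, had the opposite arrangement. It gave 5.94, 6.10, 6.54 and 6.22 with W692A, 5.33, 5.69 and 5.36 with AML1/ETO and 6.33, 6.37 and 6.55 with GFP. All AML1/ETO arrays lay below all others. Alad was 1.94-fold lower with AML1/ETO than with GFP (-0.96 ± 0.16, adjusted p = 0.000201) and 1.68-fold higher with W692A than with AML1/ETO (0.74 ± 0.15, adjusted p = 0.00168). The W692A call over AML1/ETO was lost with the mean of the gene's probe sets (0.32, adjusted p = 0.088). The other probe set in that mean was under the bound in every group (1.15 with W692A and 1.25 with AML1/ETO). W692A differed from GFP by -0.21 (-0.52 to 0.10, adjusted p = 0.408).

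Of the enzymes that follow, Uros, the uroporphyrinogen III synthase, gave 4.45, 4.49, 4.52 and 4.53 with W692A, 4.55, 4.67 and 4.65 with AML1/ETO and 4.97, 4.93 and 5.07 with GFP. Both constructs lay below GFP on all arrays. Uros was 1.29-fold lower with AML1/ETO than with GFP (-0.37 ± 0.11, adjusted p = 0.0162), a call lost without GFP replicate 3 (adjusted p = 0.059) or AML1/ETO replicate 1 (adjusted p = 0.0698). With W692A it was 1.41-fold lower than with GFP (-0.50 ± 0.10, adjusted p = 0.00339). With the mean of the gene's probe sets that difference was -0.09 and did not pass (adjusted p = 0.583). The other probe set in that mean was under the bound in every group (1.62 with W692A and 1.31 with GFP).

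Fech, the ferrochelatase that inserts iron into the ring, gave 6.46, 6.08, 6.52 and 6.30 with W692A, 6.59, 6.59 and 6.66 with AML1/ETO and 6.94, 6.89 and 6.95 with GFP. The groups did not overlap, with W692A lowest and GFP highest. Fech was 1.5-fold lower with W692A than with GFP (-0.58 ± 0.12, adjusted p = 0.00356). With the Gapdh covariate the difference was -0.63 and did not pass (adjusted p = 0.168). Without it, AML1/ETO minus GFP was -0.31 (-0.58 to -0.04, adjusted p = 0.0812) and W692A minus AML1/ETO was -0.27 (-0.52 to -0.02, adjusted p = 0.140). Neither passed. The AML1/ETO difference from GFP passed without W692A replicate 2 in the shared fit (adjusted p = 0.0469, limma) and with array medians subtracted (-0.37, adjusted p = 0.0347). The W692A difference from AML1/ETO passed with the mean of the gene's probe sets (-0.36, adjusted p = 0.0206). Urod, the uroporphyrinogen decarboxylase, was level across the groups, at 7.70 to 7.88 with W692A, 7.70 to 7.83 with AML1/ETO and 7.66 to 7.89 with GFP. Its differences were -0.04 (-0.29 to 0.20) for AML1/ETO over GFP and -0.01 (-0.24 to 0.22) for W692A over GFP. The other Urod probe set was far dimmer and close to the bound, averaging 1.98 with W692A, 2.13 with AML1/ETO and 2.10 with GFP. Ppox, the protoporphyrinogen oxidase, differed by 0.28 (-0.04 to 0.61) for AML1/ETO over GFP and by -0.29 (-0.60 to 0.02) for W692A over AML1/ETO and did not pass. Cpox, the coproporphyrinogen oxidase, was under the bound.

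**Figure D2:**
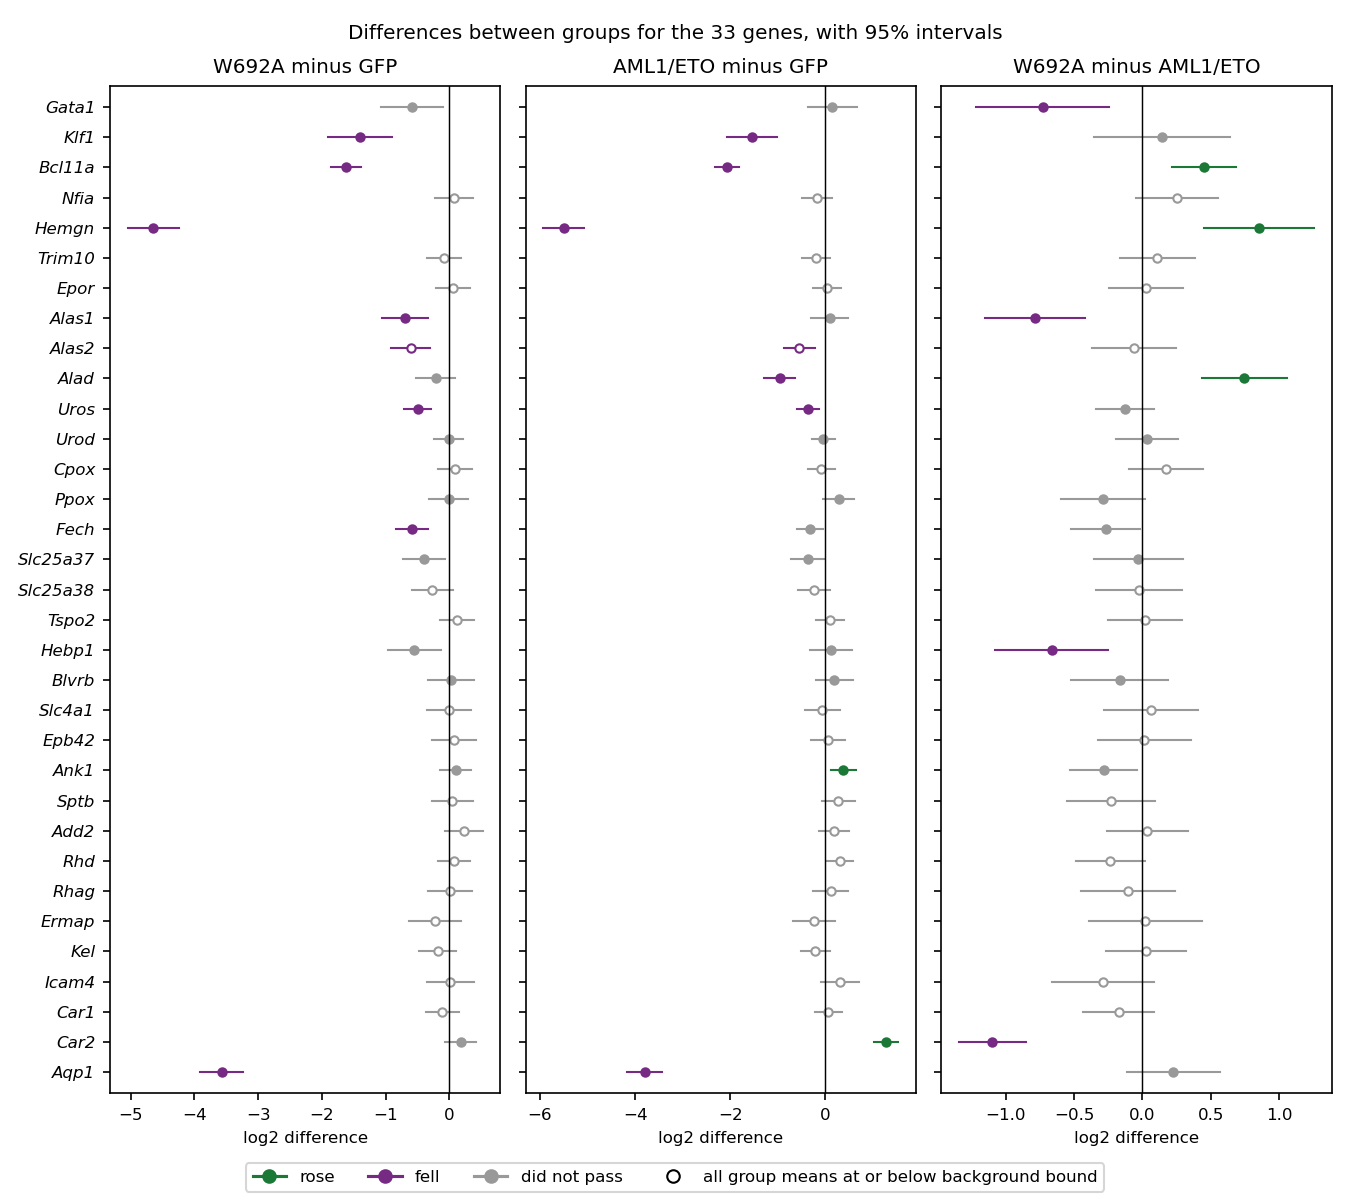
Log2 difference (horizontal axis, its range differing between panels) of each of the 33 genes in the 3 comparisons, with bars for the 95% confidence interval from the limma fit of 10 arrays. Green genes rose, purple genes fell and grey genes did not pass, and open symbols mark genes with no group mean above the background bound of 2.04. Hemgn and Aqp1 had the lowest values against GFP with both constructs, and Car2 was highest for AML1/ETO over GFP (1.28) and lowest for W692A over AML1/ETO (-1.10).

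Of the 5 genes of heme and iron handling, 1 passed in any comparison. Hebp1, a heme-binding protein, gave 3.25, 3.80, 3.11 and 3.38 with W692A, 3.72, 3.88 and 4.55 with AML1/ETO and 3.75, 4.03 and 4.02 with GFP. W692A overlapped both other groups. It was 1.58-fold lower with W692A than with AML1/ETO (-0.66 ± 0.19, adjusted p = 0.0233), and without AML1/ETO replicate 3 the difference was -0.41 and did not pass (adjusted p = 0.141). Leaving out W692A replicate 1, 3 or 4 also ended the call, as did the Gapdh covariate (-0.36, adjusted p = 0.143). Against GFP, W692A differed by -0.55 (-0.96 to -0.13, adjusted p = 0.0762) and passed without AML1/ETO replicate 3 (adjusted p = 0.0297) or W692A replicate 2 (adjusted p = 0.0274). This difference also passed in a fit of the W692A and GFP arrays alone (adjusted p = 0.0399). With the Gapdh covariate the W692A difference from GFP turned to 0.22 (adjusted p = 0.830), and Hebp1 passed for AML1/ETO over GFP (0.57, adjusted p = 0.0358). The covariate leans on AML1/ETO replicate 3, which also had the highest Hebp1 value. Slc25a37, the mitochondrial iron importer mitoferrin-1, read 1.80 to 2.53 with W692A, 2.07 to 2.18 with AML1/ETO and 2.31 to 2.69 with GFP and did not pass. Without W692A replicate 1 it passed against GFP for W692A (-0.54, adjusted p = 0.0121) and for AML1/ETO (-0.37, adjusted p = 0.0464). With the spike-in covariate it also passed for W692A (-0.46, adjusted p = 0.0473) and for AML1/ETO (-0.58, adjusted p = 0.0449). Blvrb, a biliverdin reductase, read 3.23 to 3.90 with W692A, 3.67 to 3.87 with AML1/ETO and 3.34 to 3.85 with GFP and did not pass. With the spike-in covariate Blvrb passed for AML1/ETO over GFP (0.56, adjusted p = 0.0277). Slc25a38, a mitochondrial carrier needed for heme synthesis, and Tspo2, an erythroid relative of the translocator protein, were under the bound.

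Among the 5 membrane and cytoskeleton genes, Ank1, the red cell ankyrin, rose with AML1/ETO. It gave 2.95, 2.74, 2.62 and 2.96 with W692A, 3.06, 3.14 and 3.09 with AML1/ETO and 2.66, 2.67 and 2.82 with GFP. AML1/ETO lay above both other groups on all arrays, by 1.30-fold over GFP (0.38 ± 0.12, adjusted p = 0.0289). The call was lost without GFP replicate 1 or 2, without any 1 AML1/ETO replicate, and when each array's median was subtracted (0.33, adjusted p = 0.0591). W692A differed from GFP by 0.10 (adjusted p = 0.670). Slc4a1 (band 3, the anion exchanger), Epb42 (protein 4.2), Sptb (beta spectrin) and Add2 (beta adducin) were under the bound and did not pass, except that Sptb passed for AML1/ETO over GFP without AML1/ETO replicate 1 (0.47, adjusted p = 0.0306). Also under the bound in every group mean, with no call, were the 5 blood group and adhesion genes, Rhd, Rhag, Ermap, Kel and Icam4. With the Gapdh covariate Icam4 passed for AML1/ETO over GFP (0.74, adjusted p = 0.00243, against 0.30 without it). On AML1/ETO replicate 3, on which the covariate leans, Icam4 read 2.35, beside 1.46 and 1.54 on the other AML1/ETO arrays.

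Aqp1, the water channel of the red cell membrane, gave 1.24, 0.98, 0.64 and 1.28 with W692A, 0.64, 0.71 and 1.08 with AML1/ETO and 4.57, 4.75 and 4.50 with GFP. Every array of both constructs was under the bound and every GFP array was above it. The gene was at least 5.93-fold lower with AML1/ETO than with GFP (-3.80 ± 0.17, adjusted p = 4.59e-10) and at least 5.93-fold lower with W692A than with GFP (-3.57 ± 0.16, adjusted p = 1.70e-09). With both constructs at background, a difference between them was not detectable.

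Car2, the cytosolic carbonic anhydrase II, which is not limited to red cells, gave 9.45, 9.29, 9.41 and 9.13 with W692A, 10.49, 10.47 and 10.29 with AML1/ETO and 9.12, 9.20 and 9.09 with GFP. All AML1/ETO arrays stood above all others. Car2 was 2.43-fold higher with AML1/ETO than with GFP (1.28 ± 0.12, adjusted p = 1.12e-06) and 2.14-fold lower with W692A than with AML1/ETO (-1.10 ± 0.11, adjusted p = 7.11e-06). W692A minus GFP was 0.18 (-0.06 to 0.43, adjusted p = 0.358). Car1, the carbonic anhydrase of the maturing red cell, was under the bound and did not pass.

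Markers of other blood cells that use some of these genes also differed between groups. Against GFP, 12.9% of all genes rose and 15.8% fell with AML1/ETO, and 5.45% rose and 9.07% fell with W692A. Of 11 megakaryocyte markers, 3 rose and 6 fell with AML1/ETO against GFP and 2 rose and 6 fell with W692A against GFP. Their summed linear intensity was 377 to 548 with W692A, 974 to 1016 with AML1/ETO and 479 to 681 with GFP. Such sums are led by the brightest genes. Pf4 averaged 9.61 with AML1/ETO and 7.75 with GFP, while Itgb3 averaged 4.76 and 7.50. Of 8 mast cell and basophil markers, 4 rose with AML1/ETO and 3 with W692A against GFP, with sums of 761 to 871 with W692A, 1620.05 to 3185 with AML1/ETO and 235 to 352 with GFP. The highest of these sums was AML1/ETO replicate 3, the array with the highest Gata1 value. Its Ms4a2, a subunit of the mast cell IgE receptor, read 9.05, beside 7.89 and 7.19 in AML1/ETO replicates 1 and 2. This array was also the highest of its group for some other markers but not for all. Its neutrophil gene S100a8 read 6.37, beside 4.53 and 4.13, and its eosinophil gene Epx read 5.06, beside 3.61 and 3.90. Among megakaryocyte markers, this array was the highest for Itgb3 (5.39, beside 4.74 and 4.16) and the lowest for Pf4 (9.57, beside 9.63 and 9.64). Of 6 eosinophil markers, 3 fell with AML1/ETO and 4 with W692A against GFP, with sums of 59.4 to 67.3 with W692A, 59.6 to 116 with AML1/ETO and 393 to 601 with GFP. Of 11 neutrophil markers, 2 rose and 6 fell with each construct against GFP, with sums of 1351 to 1872 with W692A, 1680.3 to 2360.5 with AML1/ETO and 2106 to 2642 with GFP. Of 9 measured stem and progenitor markers, 7 rose and 1 fell with AML1/ETO and 6 rose and 1 fell with W692A against GFP, with sums of 397 to 486 with W692A, 775 to 867 with AML1/ETO and 158 to 192 with GFP. Between W692A and AML1/ETO, 5 of the mast cell and basophil markers and 6 of the stem and progenitor markers fell and none rose. Of the 11 megakaryocyte markers 3 rose and 2 fell. Of the 6 eosinophil markers 1 fell, of the 11 neutrophil markers 2 fell, and none of either list rose. Of all genes, 11.1% fell and 9.61% rose in that comparison. The part of these cell types in the erythroid and heme values was not tested.

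A wider list of 74 genes of heme transport and breakdown, erythroid regulation and the red cell membrane, with relatives of the 33 genes, gave 66 measured genes. AML1/ETO changed 35 of them against GFP (53.0%, beside 28.6% of all genes), with 21 higher and 14 lower. W692A changed 20 against GFP (30.3%, beside 14.5%), with 10 higher and 10 lower. With the Gapdh covariate 4 of these genes were lower and 0 higher than GFP with W692A, so no rise of W692A over GFP in this list was called. W692A against AML1/ETO changed 25 (37.9%, beside 20.7%), with 8 higher and 17 lower. The median log2 differences of the list were 0.08, 0.11 and -0.11, in the same order of comparisons. The wider list was chosen with earlier results known, so its counts are descriptions.

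The largest falls of the wider list against GFP took in the erythroid and megakaryocyte regulators Nfe2 and Gfi1b, but its regulators did not move together. Tal1 averaged 6.28 with AML1/ETO, 5.66 with W692A and 5.32 with GFP, and Gata2 averaged 6.12, 5.50 and 4.99. For both of these genes all arrays of each construct lay above all GFP arrays. Nfe2, the p45 subunit of NF-E2, was 8.06-fold lower with AML1/ETO (-3.01 ± 0.18, adjusted p = 9.25e-09) and 3.29-fold lower with W692A than with GFP. Nfe2 was 2.45-fold higher with W692A than with AML1/ETO (1.29 ± 0.17, adjusted p = 5.80e-05). Gfi1b, a repressor needed for red cells and platelets, was 3.54-fold lower with AML1/ETO and 2.61-fold lower with W692A than with GFP. The urea transporter gene Slc14a1 was 3.88-fold lower with AML1/ETO and 6.97-fold lower with W692A than with GFP. Slc48a1, a heme transporter, was 3.65-fold lower with AML1/ETO than with GFP and 2.22-fold higher with W692A than with AML1/ETO. Car3, a muscle and fat carbonic anhydrase, was at least 2.03-fold lower with each construct than with GFP. Tspan33, a tetraspanin, was at least 1.85-fold lower with W692A than with GFP. Its mean was as low with AML1/ETO (1.35) as with W692A (1.38), against 2.93 with GFP.

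Other genes of the wider list rose. Klf3, a Krüppel-like repressor, was 6.16-fold higher with AML1/ETO than with GFP (2.62 ± 0.20, adjusted p = 1.56e-07) and 1.95-fold higher with W692A than with GFP. Klf6, another Krüppel-like factor, exceeded GFP by at least 7.10-fold with AML1/ETO and by at least 1.64-fold with W692A. Both were lower with W692A than with AML1/ETO, Klf3 by 3.16-fold and Klf6 by 4.32-fold. Tspo, the mitochondrial translocator protein, was 3.17-fold higher with AML1/ETO and 1.65-fold higher with W692A than with GFP. Slc2a1, the glucose transporter GLUT1, was 3.11-fold higher with AML1/ETO and 1.70-fold higher with W692A than with GFP. Car13 was 2.81-fold higher with AML1/ETO than with GFP and 2.42-fold lower with W692A than with AML1/ETO. Nfic was 1.62-fold higher with W692A than with GFP. Its mean was about the same with AML1/ETO (6.19) as with W692A (6.17), against 5.48 with GFP. Against AML1/ETO, the W692A arrays were lower for the glycophorin gene Gypc (2.13-fold) and the aquaglyceroporin gene Aqp9 (1.99-fold). They were higher for Tmem14c (1.63-fold), a mitochondrial protein needed for heme synthesis, for Lyl1 (1.58-fold), a helix-loop-helix factor, and for Glrx5 (1.49-fold), a glutaredoxin of iron-sulfur cluster assembly.

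**Figure D3:**
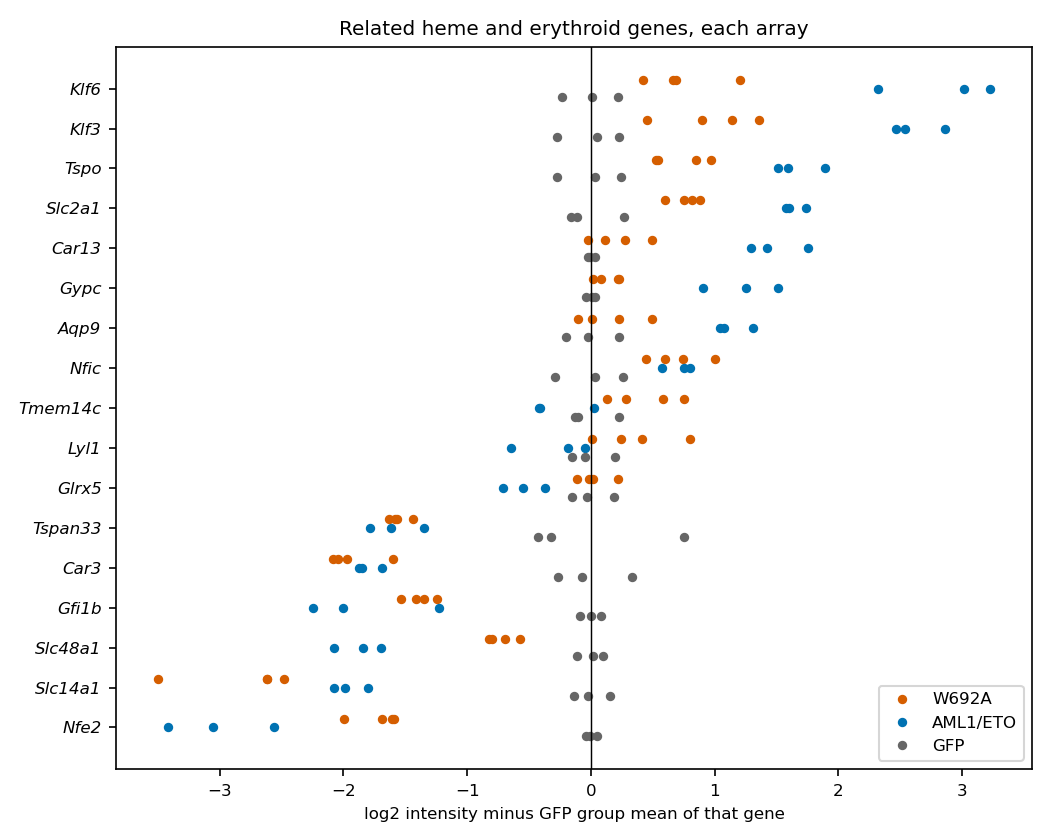
Log2 intensity on each array minus the GFP mean (horizontal axis) for 17 genes of the wider list (vertical axis), 1 point per array, coloured by group. Among the AML1/ETO points, those of Klf6 and Klf3 lie farthest to the right and those of Nfe2 farthest to the left, and the W692A points of these 3 genes lie between the AML1/ETO and GFP points.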

How the data were processed

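The authors deposited RMA values, which are log2 intensities with 1 value for each probe set on each array. The method is named in the submitters' processing notes without a version. No source states the logarithm's base; the highest value, 12.77, corresponds to 350219 if natural, more than the 65535 that a 16-bit scanner records, so base 2 was used. RMA sets all arrays to 1 distribution, which hides differences in total RNA. Of 45101 probe sets, 34945 had 1 gene symbol and were no control; symbols were updated by gene identifier for 34741 of them, giving 18193 genes. Groups came from the sample labels. Group differences came from limma (3.58.1, in R 4.3.3; lmFit and eBayes, 1 fit of 3 groups, 7 residual and 7.53 prior degrees of freedom) and checked on simulated data. Adjusted p-values are Benjamini-Hochberg values over the 18193 genes. The number of arrays limits the precision.

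The members and lists were chosen with earlier results of these data known. Members above the bound that passed in any comparison are given on each array. Of the wider list, up to 5 rises and 5 falls per comparison are named, the largest among genes above the bound whose groups did not overlap. Alternatives changed the normalization, filter, probe set rule, bound, prior, array weights, covariates, block, minimum fold and arrays.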

Additional observations from a re-analysis of the deposited data

How the results depend on the processing

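None of the 33 genes changed direction in a comparison it passed, under any alternative that gave a value. Calls that passed under all alternatives numbered 6 of 9 for AML1/ETO over GFP, 3 of 8 for W692A over GFP and 2 of 7 for W692A over AML1/ETO. Of the genes not called, 6 of 24, 3 of 25 and 1 of 26 passed under at least 1 alternative in these comparisons. For W692A over GFP, the Gapdh covariate left 506 of all genes, 3 of the 33 and 4 of the wider list called, against 2642, 8 and 20 without it. Of all genes in that comparison, a minimum of 1.5-fold left 1637 and raising dim values to the bound left 1468. For W692A over AML1/ETO, the minimum fold left 2317 and the bound 2485, against 3765, and of the 33 genes the spike-in covariate and the bound left 4 each, against 7. The causes were not tested, except that a minimum fold can only remove calls. Gata1 and Hebp1, above the bound on every array, kept differences of -0.73 and -0.66 for W692A over AML1/ETO when dim values were raised. Only their adjusted p rose, to 0.186 and 0.134 (limma). Further quantile normalization gave 1262 higher and 1352 lower genes for W692A over GFP, against 991 and 1651. Subtracting array medians gave 1 rise and 8 falls among the 33 for AML1/ETO over GFP, against 2 and 7. Leaving out 1 array at a time gave 7 to 10, 7 to 10 and 5 to 7 of the 33 called for AML1/ETO over GFP, W692A over GFP and W692A over AML1/ETO. With the replicate number as a block, 9, 8 and 7 of the 33 were called in these comparisons, as without it. Of all genes, 5272, 2344 and 3509 were called with the block. Deviations of the 9 same-numbered pairs correlated at -0.127 to 0.457, with 4 over 0.1. Every pair among the replicate 1 arrays was over 0.1. GFP replicate 1 correlated at 0.293 with AML1/ETO replicate 1 and at 0.264 with W692A replicate 1, and the latter 2 arrays at 0.457. What these arrays share was not tested. The labels do not say that the numbers pair samples, so the main fit did not pair them. With dim values raised to the bound, Alas2 and other genes dim on every array gave no value. Genes under the bound have levels that the signal over background limits.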

Other observations

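Several of the genes had further probe sets. For Bcl11a, 3 of 7 probe sets had a group mean above the bound. The other 2 above the bound differed by -1.86 and -1.93 for AML1/ETO over GFP and by -1.23 and -1.85 for W692A over GFP (log2). For W692A over AML1/ETO they differed by 0.63 and 0.08. For Fech, 2 further probe sets were above the bound. They differed by -1.01 and -0.67 for W692A over GFP and by -0.78 and -0.26 for W692A over AML1/ETO, and the second difference from AML1/ETO did not pass (adjusted p = 0.477, limma). A further probe set of Alas1 differed by -0.47 for W692A over GFP and by -0.61 for W692A over AML1/ETO.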
